A study of Mus musculus with 2 samples.

Results

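The tubulin isotypes described here are 10 of the 32285 genes in the deposited count matrix: the beta-tubulin genes Tubb2a, Tubb2b, Tubb3, Tubb4a, Tubb4b, Tubb5 and Tubb6, and the alpha-tubulin genes Tuba1a, Tuba1b and Tuba1c. They were chosen by gene symbol as members of 2 gene families, and each symbol matched 1 row with the gene ID that the annotation gives it. They were measured by droplet single-cell RNA sequencing (10x Genomics 3' chemistry, v3.1) in the dentate gyrus, the hippocampal region that keeps making granule neurons after birth, of mice at postnatal day 30. The series holds conditional knockouts (cKO; Nestin-Cre Tg, Phf2flox/flox) and controls (Nestin-Cre Tg, Phf2+/+), with 4 mice and 1 library per genotype, all carrying the Nestin-Cre transgene (B6.Cg-Tg(Nes-cre)1Kln/J), which drives Cre recombinase in neural stem and progenitor cells. Animals were perfused with buffered saline and the tissue was dissociated enzymatically, and no label says whether animals were pooled. Phf2 encodes a histone demethylase. No label ties either library to a genotype, and no expression level was used to decide it. The libraries are therefore called library 1 and library 2, no difference by genotype is given, and the tests below compare cell classes.

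Microtubules are hollow polymers of dimers of 1 alpha- and 1 beta-tubulin, and the isotypes of each family are encoded by separate genes. Their globular bodies are nearly alike, while the acidic C-terminal tails, which face outwards and carry glutamate chains added after translation, differ between most isotypes. In brain, Tubb3 is the classical marker of neurons, Tubb2b and Tuba1a are abundant in migrating and axon-forming neurons, Tubb4a is the main beta-tubulin of myelinating oligodendrocytes, and Tubb5 is common in dividing cells.

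To show the part that differs between most isotypes, the last 60 coding bases before the stop codon are given for 6 of the beta isotypes, read from GENCODE M21 transcripts (GRCm38), 5′ to 3′, with in-frame codons for glutamate in capitals.
Tubb2a: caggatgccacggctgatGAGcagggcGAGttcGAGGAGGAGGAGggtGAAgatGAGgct
Tubb2b: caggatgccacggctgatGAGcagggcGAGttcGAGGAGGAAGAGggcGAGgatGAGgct
Tubb3: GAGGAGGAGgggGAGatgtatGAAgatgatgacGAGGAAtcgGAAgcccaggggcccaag
Tubb4a: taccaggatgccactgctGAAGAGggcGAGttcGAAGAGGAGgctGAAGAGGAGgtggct
Tubb4b: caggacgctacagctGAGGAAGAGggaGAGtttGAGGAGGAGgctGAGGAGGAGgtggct
Tubb5: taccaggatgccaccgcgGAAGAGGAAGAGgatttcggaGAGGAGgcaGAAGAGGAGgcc
Among the last 20 codons, glutamate took 10 in Tubb4b, 9 in Tubb4a and Tubb5, and 8 in Tubb2a, Tubb2b, Tubb3 and Tubb6.

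All 10 genes are annotated as protein coding with 4 exons and 444 to 451 codons. Tubb2a (chr13:34074274-34078007) and Tubb2b (chr13:34126748-34130466) are neighbours on the minus strand of chromosome 13. Tuba1b (chr15:98931425-98934565, minus strand), Tuba1a (chr15:98949837-98953703, minus strand) and Tuba1c (chr15:99029891-99038110, plus strand) lie close together on chromosome 15. Tubb5 (chr17:35833921-35838306) and Tubb4a (chr17:57080066-57087782) are on the minus strand of chromosome 17, Tubb4b (chr2:25222160-25224702) on the minus strand of chromosome 2, Tubb3 (chr8:123411424-123422015) on the plus strand of chromosome 8, and Tubb6 on chromosome 18. These coordinates are those of GRCm38, which is the assembly behind the submitters' mm10. The coding sequences of the alpha members were 97.2% to 98.3% identical in pairwise end-to-end alignments, and those of the beta members 80.6% to 96.5%, with Tubb2a and Tubb2b the closest beta pair. Over the last 300 bases of the transcripts, the end that this chemistry reads, the identities were 52.0% to 57.6% and 45.6% to 55.0%. The stretch after the stop codon is 197 bases in Tuba1a, 157 in Tuba1b, 101 in Tuba1c, 194 in Tubb2a and 148 in Tubb4b. Their last 300 bases thus include coding sequence, and the identities average over both parts. Tubb2a and Tubb2b were 96.5% identical in coding sequence but 50.7% over those last bases. The sources used here do not say how reads shared by near-identical copies were assigned, so levels of close paralogs carry that uncertainty, as does Tubb3, whose locus the annotation marks as overlapping another.

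After filtering, library 1 held 8029 cells (median 8092 UMIs and 2798 genes) and library 2 held 8129 cells (median 7232 UMIs and 2601 genes). A UMI, or unique molecular identifier, marks 1 captured transcript. Clusters were named from marker genes that include no tubulin, and the 10 isotypes took no part in clustering. The 18 classes with at least 20 cells in each library are described. All own markers were found in 25% or more of the cells in 30 of 36 pairs of class and library, with gaps in RGL-like, nIPC-like and Neuroblast-like cells. RGL-like cells (radial glia-like stem cells), nIPC-like cells (neuronal intermediate progenitors), Neuroblast-like cells (immature neurons) and Granule neuron-like cells stand for the steps by which a granule neuron is made. A total of 23 barcodes of kept cells occurred in both libraries.

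Levels are given as CPM, the UMI count of a gene scaled to a common total for its class, with exact 95% Poisson intervals where quoted. Because this chemistry gives 1 UMI per captured transcript whatever its length, CPM values of different isotypes were set side by side without dividing by length. Intervals here and below cover counting error only. They do not cover the spread between mice, because each library is 1 measurement and cells are not replicates. A class is called separated from the next in the order where its interval lay above that of the next class in every pairing of the libraries.

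**Figure D1:**
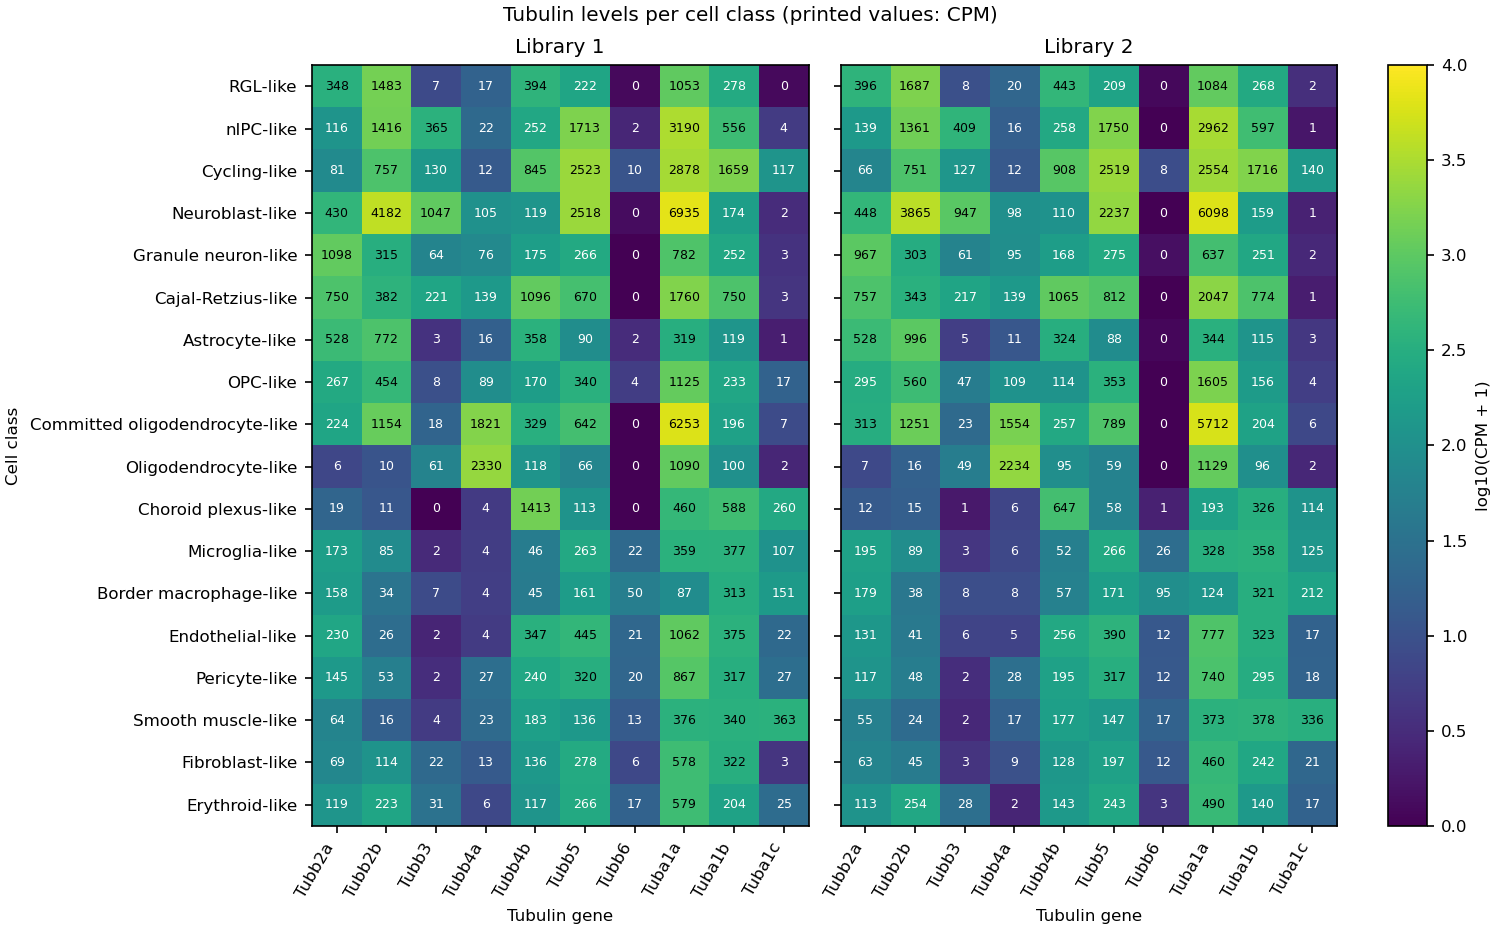
Levels of the 10 isotypes (columns) in 18 cell classes (rows), coloured by log10(CPM + 1) and printed as CPM, with library 1 on the left and library 2 on the right. Each isotype is high in a different set of classes, with Tubb3 highest in Neuroblast-like cells (1047 and 947 CPM) and Tubb4a in Oligodendrocyte-like cells (2330.4 and 2234 CPM).

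Tubulin transcripts made up their largest share of the transcriptome in young neurons. The 10 isotypes together took 1.55% of all UMIs in Neuroblast-like cells of library 1 and 1.40% in library 2. They took 1.06% and 1.01% in Committed oligodendrocyte-like cells, the newly forming oligodendrocytes. Cycling-like cells (0.901% and 0.880%) and nIPC-like cells (0.764% and 0.749%) followed. Mature classes of the same lineages stood lower, with 0.303% and 0.276% in Granule neuron-like cells and 0.378% and 0.369% in Oligodendrocyte-like cells. Border macrophage-like cells (0.101% and 0.121%) and Fibroblast-like cells (0.154% and 0.118%) were among the lowest, with Border macrophage-like cells last in library 1 and Fibroblast-like cells last in library 2. The ratio of alpha to beta UMIs ranged widely too. It was 2.46 and 2.47 in Smooth muscle-like cells, 1.54 and 1.41 in Committed oligodendrocyte-like cells, 0.846 and 0.812 in Neuroblast-like cells, and 0.248 and 0.237 in Astrocyte-like cells. These ratios compare captured transcripts, not protein.

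**Figure D2:**
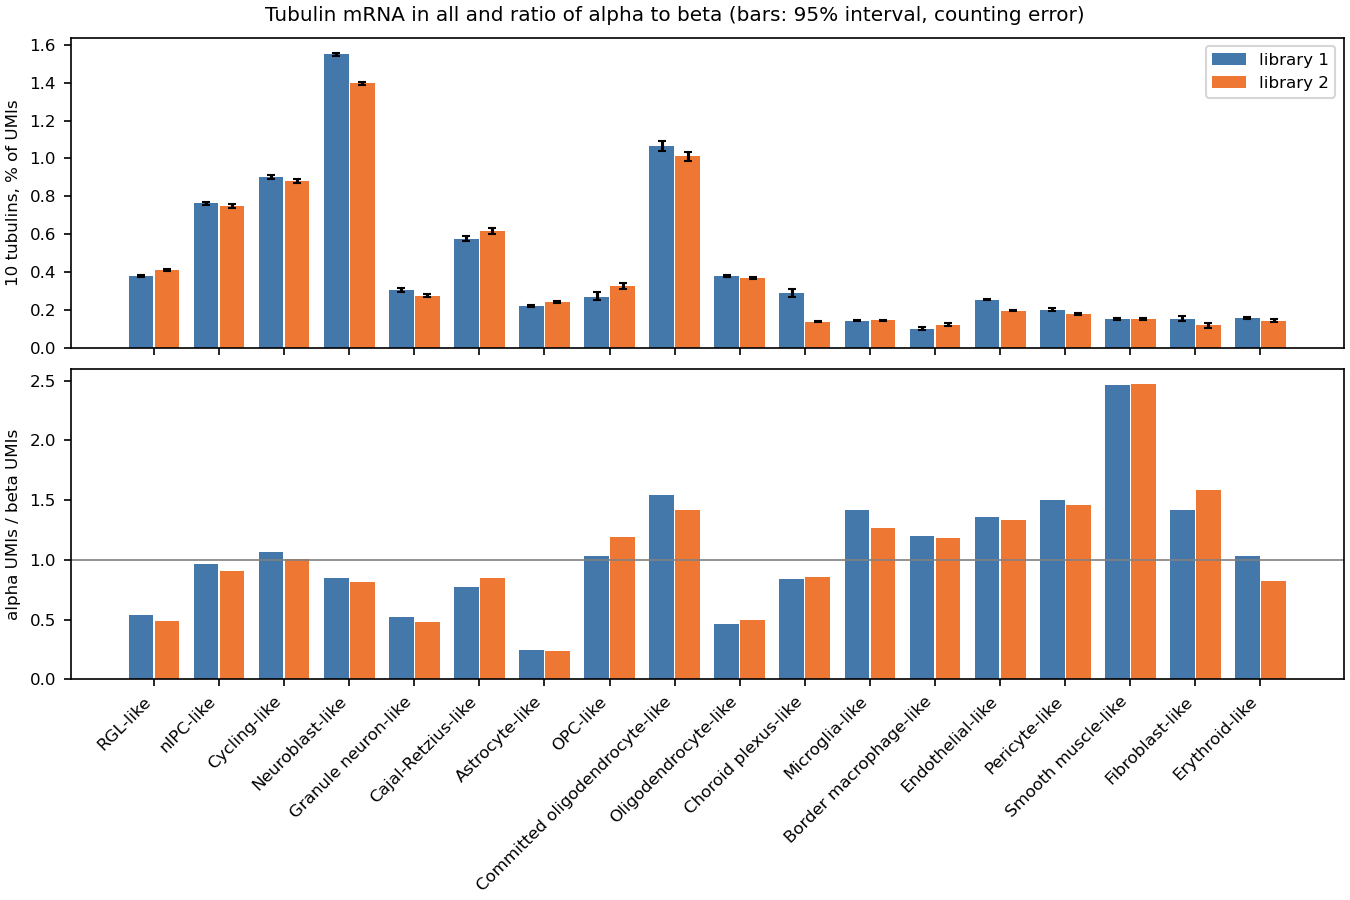
Percent of all UMIs taken by the 10 isotypes (top, bars with exact 95% intervals for counting error) and ratio of alpha to beta UMIs (bottom, line at a ratio of 1), in 18 classes, blue for library 1 and orange for library 2. Neuroblast-like cells stand highest at 1.55% and 1.40%, and Border macrophage-like cells near the bottom at 0.101% and 0.121%.

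Tubb3, the neuronal beta-tubulin, was highest in Neuroblast-like cells, at 1047 CPM in library 1 (1025 to 1070) and 947 CPM in library 2 (923 to 970). nIPC-like cells came next with 365 CPM (345 to 385) and 409 CPM (385 to 434). Cajal-Retzius-like cells, early-born neurons that persist in this region, had 221 and 217 CPM, and Cycling-like cells 130.0 and 127 CPM. Each of these 4 classes was separated from the next in the order. Granule neuron-like cells had only 63.6 and 61.1 CPM, and their intervals overlapped those of Oligodendrocyte-like cells at 60.8 and 49.2 CPM. RGL-like cells had 6.997 and 8.43 CPM. The remaining non-neuronal classes reached at most 46.9 CPM in either library, that value being in OPC-like cells (oligodendrocyte precursors) of library 2, against 8.49 CPM in library 1.

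Cell by cell, after each cell was thinned to 1000 UMIs, Tubb3 was found in 60.4% and 57.5% of Neuroblast-like cells and in 29.4% and 33.0% of nIPC-like cells. It was found in 0.273% and 0.324% of Microglia-like cells, a class that should lack it. Without thinning the shares were 96.3% and 93.8% in Neuroblast-like cells (median 9682 and 7825 UMIs), 68.1% and 66.5% in nIPC-like cells (14381 and 12337 UMIs), and 1.64% and 2.35% in Microglia-like cells (7816 and 6896 UMIs). Oligodendrocyte-like cells held Tubb3 in 58.0% and 48.7% of cells at their full depth of 23848 and 22081 UMIs, and in 4.55% and 3.52% after thinning. The thinned shares of Oligodendrocyte-like cells were above those of Microglia-like cells, with exact Clopper-Pearson intervals of 2.44% to 7.65% against 0.118% to 0.538% in library 1 and 1.83% to 6.07% against 0.140% to 0.637% in library 2.

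The RefSeq promoter entry of Tubb3 (GRCm38.p6, chr8:123411303-123411602, plus strand, 250 bases before to 50 after the start) is shown because Tubb3 had its highest levels in young neurons. Capitals mark CCAAT or its reverse complement ATTGG, the CCAAT box.
Tubb3: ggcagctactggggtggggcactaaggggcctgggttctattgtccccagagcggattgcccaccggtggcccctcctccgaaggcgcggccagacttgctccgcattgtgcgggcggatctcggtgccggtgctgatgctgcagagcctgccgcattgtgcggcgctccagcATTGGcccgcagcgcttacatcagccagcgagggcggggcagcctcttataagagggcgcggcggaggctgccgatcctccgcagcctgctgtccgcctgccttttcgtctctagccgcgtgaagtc
This window held 1 CCAAT box, no CANNTG (the E-box, which neurogenic bHLH factors can bind) and no ACAAAG (a SOX motif), both strands searched. Among 32851 promoter windows of the same length, 37.4% held a CCAAT box, 72.3% an E-box and 18.7% the SOX motif. Such matches describe letters and not binding. The Tubb3 locus given above begins at 123411424, before the start used by this entry, so most of the window lies inside the locus.

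Tubb2b, an isotype of migrating neurons and of radial glia, was also highest in Neuroblast-like cells, at 4182 and 3865 CPM. RGL-like cells had 1483 and 1687 CPM, nIPC-like cells 1416 and 1361 CPM, and Committed oligodendrocyte-like cells 1154 and 1251 CPM, and neighbours among these 3 were not separated. Astrocyte-like cells had 772 and 996 CPM, a difference between libraries beyond counting error. Oligodendrocyte-like cells (10.1 and 16.4 CPM) and Choroid plexus-like cells (11.3 and 15.5 CPM) were at the bottom and not separated.

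Tubb2a, its neighbour on chromosome 13, had another order. It was highest in Granule neuron-like cells with 1098 CPM (1037 to 1163) and 967 CPM (926 to 1010). Cajal-Retzius-like cells had 750.3 and 757 CPM, Astrocyte-like cells 528 CPM in both libraries, and Neuroblast-like cells 429.7 and 448 CPM, each separated from the next. nIPC-like cells held 116 and 139 CPM, and Oligodendrocyte-like cells 6.17 and 6.60 CPM. Thinned to 1000 UMIs, 53.1% and 65.1% of Granule neuron-like cells and 0.350% and 0.880% of Oligodendrocyte-like cells held a Tubb2a UMI. Unthinned, 98.0% and 98.1% of Granule neuron-like cells (median 20867 and 19498 UMIs) and 14.3% and 12.6% of Oligodendrocyte-like cells held one.

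Tubb5, the widely used beta-tubulin of proliferating cells, had 2523 and 2519 CPM in Cycling-like cells and 2518 and 2237 CPM in Neuroblast-like cells, which were not separated. nIPC-like cells had 1713 and 1750.2 CPM. At the bottom were Astrocyte-like cells (89.8 and 87.9 CPM), Choroid plexus-like cells (113 and 57.6 CPM) and Oligodendrocyte-like cells (66.3 and 59.4 CPM), and neighbours in this order were not separated.

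Tubb4a was an oligodendrocyte isotype. Oligodendrocyte-like cells held 2330.4 CPM (2295 to 2366) and 2234 CPM (2201 to 2268), and Committed oligodendrocyte-like cells 1821 and 1554 CPM. All other classes held at most 139 CPM, the level of Cajal-Retzius-like cells in both libraries, and OPC-like cells held 89.1 and 109 CPM. After thinning, 90.2% and 85.6% of Oligodendrocyte-like cells held a Tubb4a UMI, against 0.547% and 0.809% of Microglia-like cells, and unthinned 100% of Oligodendrocyte-like cells in both libraries, against 3.69% and 4.53% of Microglia-like cells. Its RefSeq promoter entry (GRCm38.p6, chr17:57087551-57087850, minus strand) is given for comparison with that of Tubb3 and held no CCAAT box, E-box or SOX motif, so no base is in capitals. The Tubb4a locus given above begins at 57087782 on this strand, so most of the window lies inside the locus.
Tubb4a: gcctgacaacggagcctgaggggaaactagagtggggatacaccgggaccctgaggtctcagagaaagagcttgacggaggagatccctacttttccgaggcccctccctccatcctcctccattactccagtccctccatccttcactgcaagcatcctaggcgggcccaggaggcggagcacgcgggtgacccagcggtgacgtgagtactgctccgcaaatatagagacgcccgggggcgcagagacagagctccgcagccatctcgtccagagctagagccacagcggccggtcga

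Tubb4b, the main beta-tubulin of cilia, was high in Cajal-Retzius-like cells (1096 and 1065 CPM), Choroid plexus-like cells (1413 and 647 CPM) and Cycling-like cells (845 and 908 CPM), and neighbours in this order were not separated. The epithelium of the choroid plexus is ciliated. The Choroid plexus-like class had 29 cells in library 1 and 339 in library 2, and its cluster 27, with 569 CPM of Tubb4b in 110 cells of library 2, held 1 cell of library 1. In the other cluster, cluster 15, Tubb4b stood at 1498 CPM (28 cells) and 878 CPM (229 cells). Cluster 15 scored 3.49 for choroid plexus markers and 2.04 for ependymal markers, and the ependymal marker Rsph1 was among its leading genes. Cluster 27 scored 5.55 and 1.21. The part of ependymal cells in these levels was not tested. Microglia-like cells (46.5 and 52.4 CPM) and Border macrophage-like cells (45.2 and 57.2 CPM) had the lowest levels. The RefSeq promoter entry of Tubb4b (GRCm38.p6, chr2:25224653-25224952, minus strand) is shown because it held 5 CCAAT boxes, in capitals, none overlapping another. At least 5 copies were found in 89 of the 32851 windows, or 0.271%.
Tubb4b: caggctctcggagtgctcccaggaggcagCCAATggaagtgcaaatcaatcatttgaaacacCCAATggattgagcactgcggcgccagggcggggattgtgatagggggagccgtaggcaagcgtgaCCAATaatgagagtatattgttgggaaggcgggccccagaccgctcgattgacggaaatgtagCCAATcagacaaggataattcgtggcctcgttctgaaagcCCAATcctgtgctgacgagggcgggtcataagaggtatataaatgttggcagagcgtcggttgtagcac
Tubb5 held 2 CCAAT boxes, Tubb3, Tuba1a and Tuba1c 1 each, and Tubb2a, Tubb4a and Tuba1b none, among the 8 members with an entry. An E-box was found in 6 of these 8 windows, all but those of Tubb3 and Tubb4a, and the SOX motif in that of Tubb5.

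Tubb6 had the lowest peak of the 10 isotypes and was highest in non-neural classes. Border macrophage-like cells had 50.5 CPM (38.2 to 65.4) and 95.04 CPM (76.7 to 116), and Microglia-like cells 22.2 and 26.2 CPM. Endothelial-like cells had 20.6 and 11.7 CPM. No Tubb6 UMI was found in Oligodendrocyte-like cells of either library (0 of 286 and 0 of 341 cells unthinned, which allows up to 1.05% and 0.880% of cells to hold a UMI and sets no limit on cells that express the gene), and Neuroblast-like cells had 0.379 and 0 CPM.

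Among the alpha members, Tuba1a, the main alpha-tubulin of developing neurons, dominated most classes. It had 6935 and 6098 CPM in Neuroblast-like cells and 6253 and 5712 CPM in Committed oligodendrocyte-like cells, and these were not separated. nIPC-like cells had 3189.9 and 2962 CPM and Cycling-like cells 2878 and 2554 CPM. Border macrophage-like cells were lowest with 86.8 and 124 CPM. Tuba1b, an alpha-tubulin expressed in most tissues, was highest in Cycling-like cells at 1659 and 1716 CPM, above the 749.5 and 774 CPM of Cajal-Retzius-like cells, and lowest in Oligodendrocyte-like cells at 99.9 and 95.6 CPM. Tuba1c had its highest levels in 3 other classes, with 363 and 336 CPM in Smooth muscle-like cells, 259.9 and 114 CPM in Choroid plexus-like cells and 151 and 212 CPM in Border macrophage-like cells. Cycling-like cells held 117 and 139.9 CPM of Tuba1c, while Neuroblast-like cells held 2.28 and 1.37 CPM and RGL-like cells 0.269 and 2.41 CPM. Thinned, 25.8% and 25.6% of Smooth muscle-like cells held a Tuba1c UMI, against 0.234% and 0.350% of Neuroblast-like cells, and unthinned 86.8% and 85.0% of Smooth muscle-like cells (median 11421 and 10804 UMIs), against 2.11% and 1.05% of Neuroblast-like cells.

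The leading isotype of each family differed between classes, described here with no test. Tubb5 was the leading beta-tubulin in both libraries in 6 classes, Tubb2b in 4, Tubb4b in 3, Tubb4a in 2 and Tubb2a in 1. In the other classes, Border macrophage-like and Erythroid-like cells, the leading isotype differed between libraries. Oligodendrocyte-like cells came close to using 1 isotype, with 89.9% and 90.8% of beta UMIs from Tubb4a, as did Choroid plexus-like cells with 90.6% and 87.4% from Tubb4b. Neuroblast-like cells were mixed, with 49.8% and 50.2% from Tubb2b and 12.5% and 12.3% from Tubb3. Tubb3 was therefore a minority of the beta-tubulin transcripts even where its level was highest, and it took 9.39% and 10.4% in nIPC-like cells. RGL-like cells were led by Tubb2b (60.01% and 61.0%), Granule neuron-like cells by Tubb2a (55.1% and 51.7%), and nIPC-like cells by Tubb5 (44.1% and 44.5%). Inside the nIPC-like class, Tubb5 was first in cluster 18 (55.2% and 55.5%), the cluster marked by replication genes. Tubb2b was first in cluster 43 (41.7% and 40.5%) and in cluster 44 (45.1% and 44.9%).

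Tuba1a led the alpha members in both libraries in 14 of the 18 classes and Tuba1b in 3, namely Choroid plexus-like, Microglia-like and Border macrophage-like cells. Tuba1a took 97.5% and 97.4% of alpha UMIs in Neuroblast-like cells, 91.5% and 92.1% in Oligodendrocyte-like cells, and 42.6% and 40.4% in Microglia-like cells. In Smooth muscle-like cells the 3 alpha members were nearly level, with Tuba1a leading in library 1 at 34.9% and Tuba1b in library 2 at 34.8%.

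**Figure D3:**
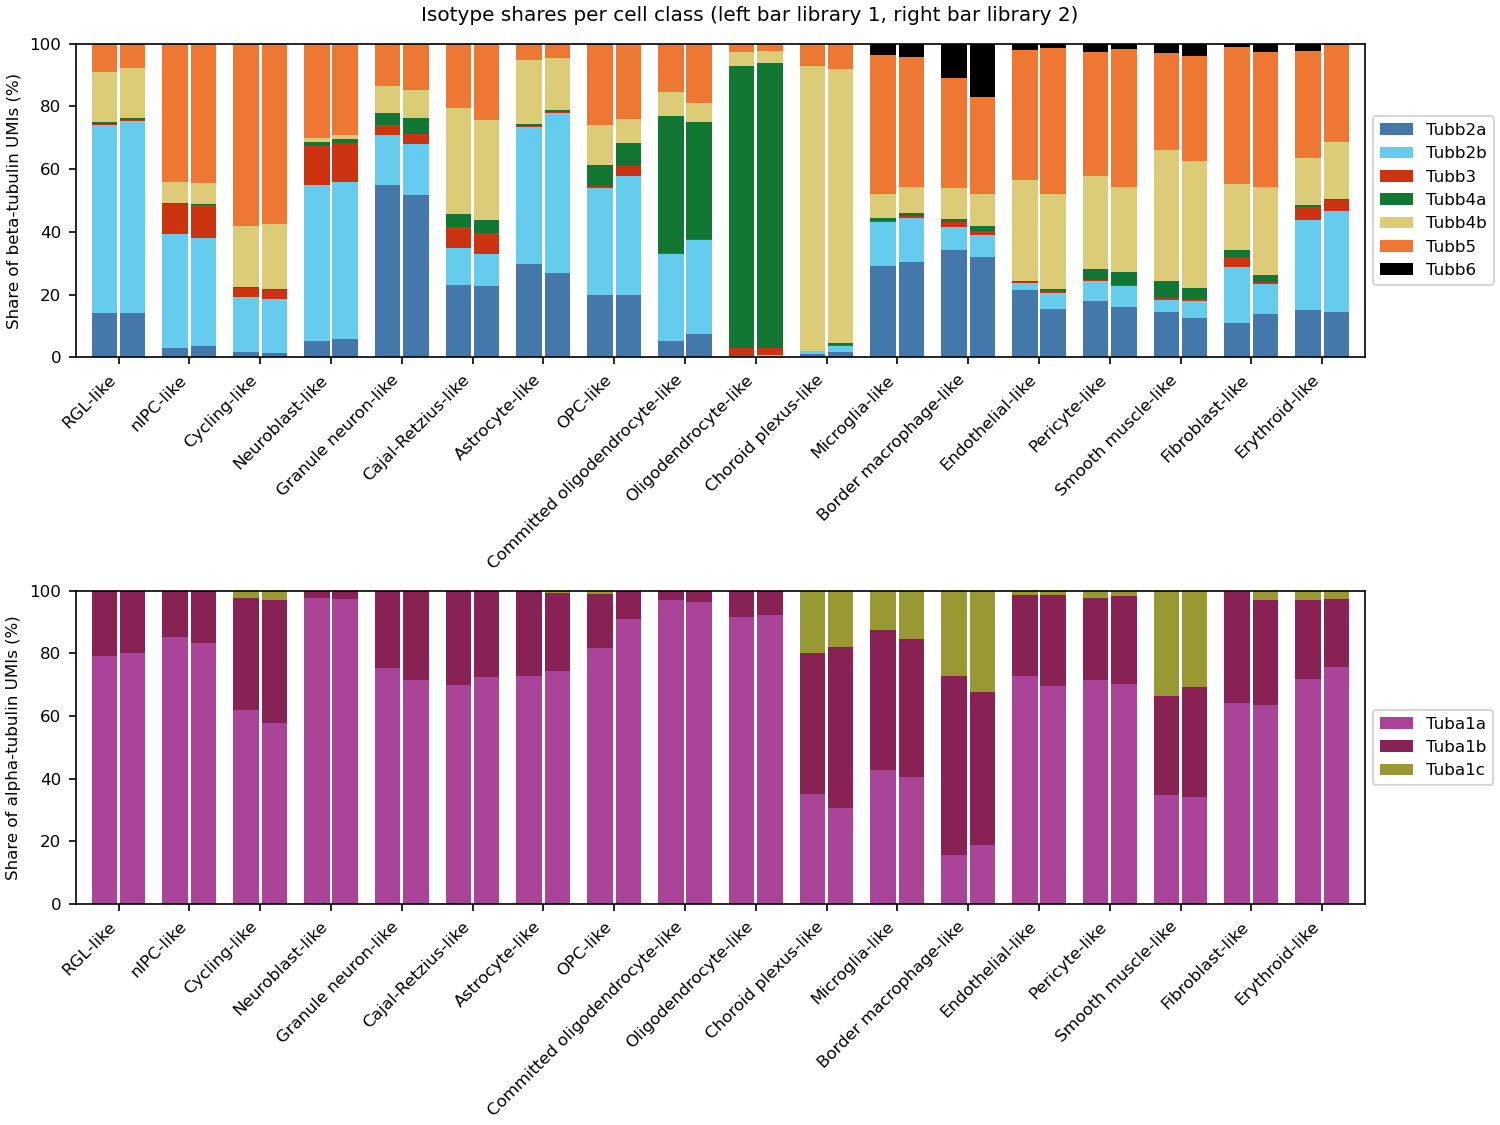
Share of beta-tubulin UMIs taken by each of 7 beta members and of alpha-tubulin UMIs taken by each of 3 alpha members, as stacked bars to 100%, in 18 classes and both libraries. The bar of Oligodendrocyte-like cells is filled by Tubb4a (89.9% and 90.8%), while that of Neuroblast-like cells is split mainly between Tubb2b (49.8% and 50.2%), Tubb5 and Tubb3.

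Most single cells of the neurogenic classes carried several isotypes. At 1000 UMIs per cell, the median number of isotypes found was 4 in Neuroblast-like and Cycling-like cells and 3 in nIPC-like cells, against 1 in Microglia-like cells. At least 5 isotypes were found in 36.4% and 30.9% of Neuroblast-like cells. Without thinning the medians were 7 and 6 in Neuroblast-like cells and 5 and 4 in Microglia-like cells.

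Free RNA, measured in barcodes with fewer than 100 UMIs, held 1415 and 994 CPM of Tuba1a, 604 and 502 CPM of Tubb2b and 121 and 95.1 CPM of Tubb3. Its estimated part of a class sum, capped at 100%, lay between 1.13% and 14.99% in most classes. The exceptions were Erythroid-like cells (100% and 54.8%) and the OPC-like cells of library 1 (34.2%), where free RNA could make up much of the levels. There the estimate was too high for some members. In Erythroid-like cells it would give 168 and 104 CPM of Tubb4a, but 6.38 and 1.58 CPM were found. For Tuba1a it would give 1415 CPM in their library 1, where 579 CPM were found. In the OPC-like cells of library 1 it would give 41.3 CPM of Tubb3, against 8.49 CPM found. By these estimates, the lower end of the level's interval was above what free RNA alone would give in both libraries in 17 of 18 classes for Tubb4b, Tubb5, Tuba1a and Tuba1b, in 16 for Tubb2a, in 11 for Tubb2b, in 9 for Tubb4a, in 7 for Tubb3 and Tuba1c, and in 6 for Tubb6. Where free RNA was subtracted, no count was left if the estimate exceeded it. Folds after subtraction can therefore be inflated for members near that level.

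Sums of counts per library and class were compared between classes in a quasi-likelihood fit of edgeR that blocked on library. Folds are log2 ratios ± SE, scaled under the assumption that most genes do not change, which the numbers of genes called below do not always meet. The SE was not given by the fit but calculated back from the fold and the F statistic of its test. A gene was called at an adjusted p (Benjamini-Hochberg over all genes tested) under 0.05. With 2 libraries each fit had 1 residual degree of freedom, so the p-values reflect variation of a difference between these libraries and not between mice, and each library's genotype cannot be told apart from the library. Contrasts that use the same class share its sums and are not independent. Folds within a single library were taken from log2 CPM with a small count added, which shrinks the folds of scarce genes.

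**Figure D4:**
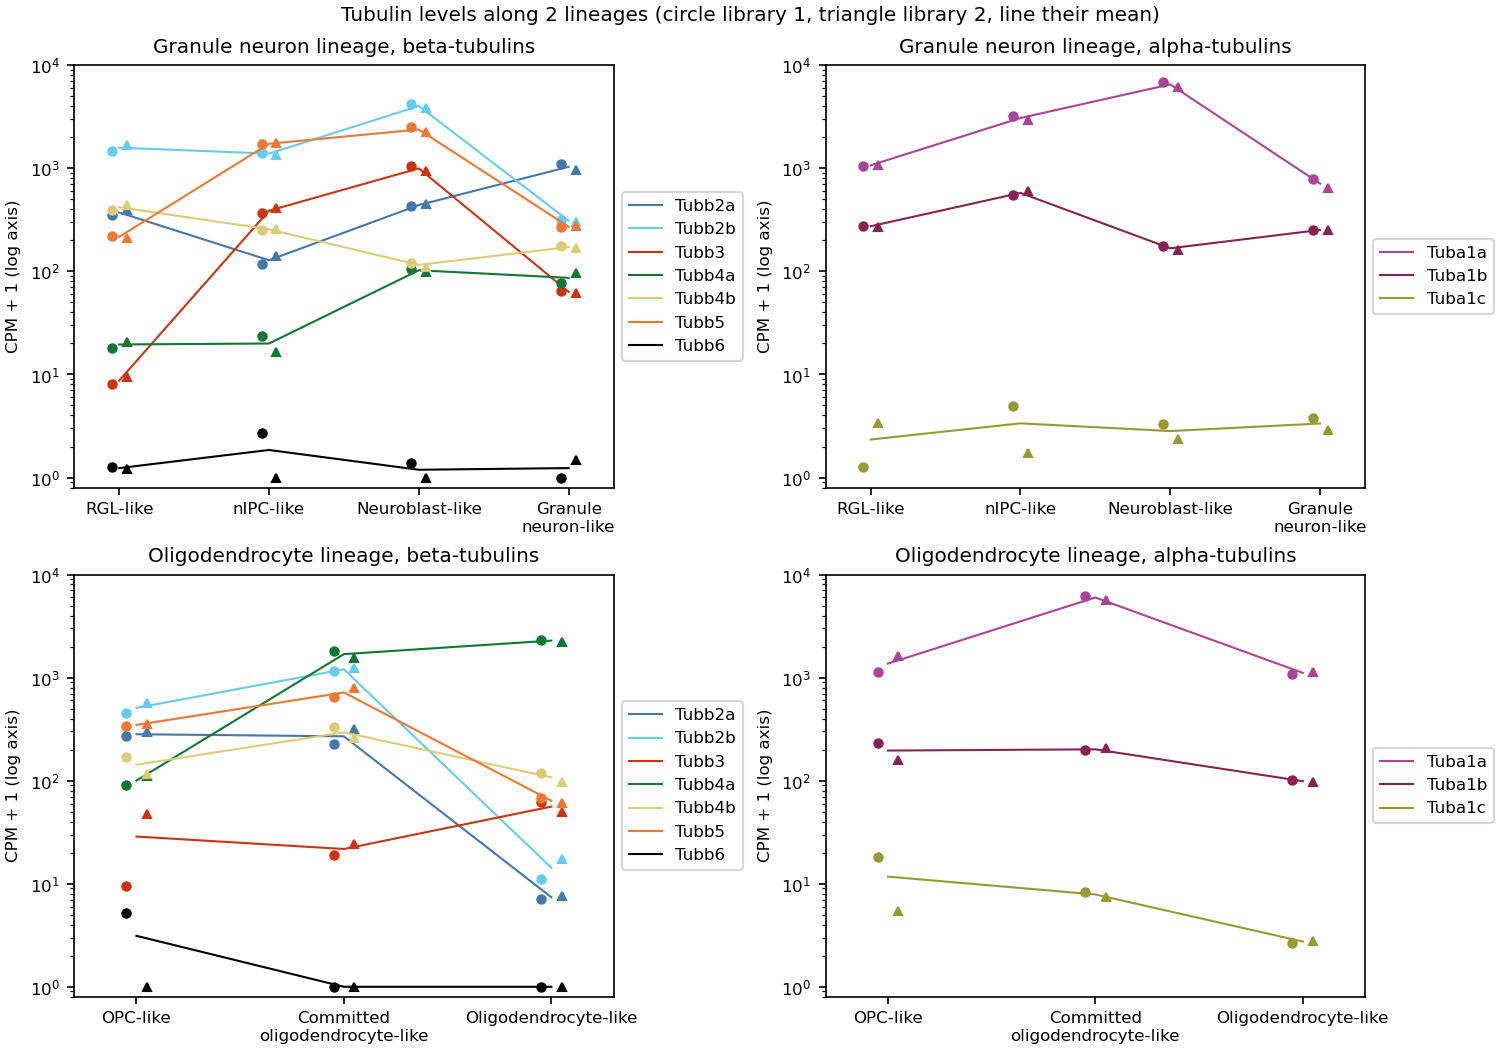
Levels of the beta members (left) and alpha members (right) along the granule neuron lineage (top) and the oligodendrocyte lineage (bottom), as CPM plus 1 on a log axis, circles for library 1, triangles for library 2 and a line through their mean. Tubb3 stands at 6.997 and 8.43 CPM in RGL-like cells, 1047 and 947 CPM in Neuroblast-like cells and 63.6 and 61.1 CPM in Granule neuron-like cells.

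The step from stem cell to progenitor changed the beta isotypes in opposite directions. In nIPC-like against RGL-like cells, Tubb3 was higher by 5.45 ± 0.13 (365 and 409 CPM in nIPC-like cells, 6.997 and 8.43 CPM in RGL-like cells) and Tubb5 by 2.83 ± 0.07. Tuba1a (1.34 ± 0.06) and Tuba1b (0.90 ± 0.08) were higher too. Tubb2a (-1.73 ± 0.09) and Tubb4b (-0.89 ± 0.08) were lower. Tubb2b was lower by a small margin (-0.37 ± 0.06), but stood at 0.22 with clusters that scored close to nIPC counted as nIPC, and its call was lost with doublets kept (adjusted p = 0.0818). The same counting as nIPC gave -1.14 for Tubb2a, 6.16 for Tubb3 and a call of 0.50 for Tubb4a (adjusted p = 0.00877), and subtracting free RNA gave 6.22 for Tubb3. Of 8 members tested, 4 were higher and 3 lower, against 33.6% of all 12251 genes higher and 33.5% lower, and Tubb4a was not called (-0.15 ± 0.20, adjusted p = 0.516). The members' median fold was 0.37, beside 0.00 for all genes. The nIPC-like class also held 6280 and 6279 CPM of Neuroblast markers in sum, with 7 and 6 of 9 in 25% or more of its cells, and the part of these in the result was not tested. RGL-like cells held 278 and 268 CPM of Tuba1b and 1483 and 1687 CPM of Tubb2b. In the nIPC-like cluster 18, led by replication genes, these stood at 824 and 868 CPM and at 668 and 687 CPM. Cluster 43 held 195 and 189 CPM and 2242 and 2215 CPM. Cluster 44 held 122 and 111 CPM and 3096 and 3064 CPM. The directions of both class folds are thus those of cluster 18, with no test. The name of cluster 18 was borderline. It scored 1.03 for nIPC, near the minimum of 1, and 0.87 for RGL, the class it is compared with here.

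Most chaperonin and prefoldin subunits rose at this step, where 33.6% of all genes tested were higher and 33.5% lower. Of 14 subunits of the chaperonin and prefoldin, which fold new tubulin, 12 were higher and 0 lower in nIPC-like cells, with a median fold of 0.96, led by the prefoldin subunit Pfdn4 (1.69 ± 0.12) and the chaperonin subunits Cct4 (1.28 ± 0.10), Cct7 (1.16 ± 0.09) and Tcp1 (1.13 ± 0.09). Among 7 folding cofactors, which assemble the dimer, 3 were higher and 2 lower (median 0.01), near the shares of all genes. Tbca (0.71 ± 0.08), Tbcb (0.58 ± 0.09) and Tbcd (0.94 ± 0.27) rose and Tbcel (-1.08 ± 0.14) fell. Among 16 modifying enzymes tested, 8 were higher and 3 lower. Vash2, a tubulin detyrosinase, rose and had 29 and 22 UMIs in nIPC-like cells and 0 in RGL-like cells of both libraries, which makes it at least 10.2-fold and 13.5-fold higher when set against a floor of 3 UMIs per library. Atat1, the tubulin acetyltransferase, rose too (0.85 ± 0.13), while Ttll3, a glycylase (-3.14 ± 0.17), and Sirt2, a deacetylase (-1.47 ± 0.11), fell. Of 4 other tubulins tested, Tubg1 (1.503 ± 0.16), the gamma-tubulin that nucleates microtubules, and Tube1 (1.10 ± 0.37) rose and Tuba4a (-2.17 ± 0.56) fell.

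From nIPC-like cells as a class to young neurons, most isotypes rose while Tuba1b and Tubb4b fell. In Neuroblast-like against nIPC-like cells, Tubb4a (2.51 ± 0.12), Tubb2a (1.91 ± 0.06), Tubb2b (1.65 ± 0.05), Tubb3 (1.48 ± 0.05), Tuba1a (1.19 ± 0.04) and Tubb5 (0.57 ± 0.04) were higher. Tuba1b (-1.67 ± 0.06) and Tubb4b (-1.04 ± 0.07) were lower. Thus 6 of 9 members tested were higher and 2 lower, against 27.7% and 28.1% of all 12435 genes, and the members' median fold was 1.19 beside 0.00 for all genes. Tuba1c was not called (-0.29 ± 0.52, adjusted p = 0.657). Tubb4a nevertheless stayed low in absolute terms, at 105 and 98.2 CPM in Neuroblast-like cells and 22.4 and 15.5 CPM in nIPC-like cells. With the close clusters counted as nIPC, the fold of Tubb3 was 0.69, and with free RNA subtracted that of Tubb4a was 3.19. Inside the nIPC-like class, Tuba1b stood at 824 and 868 CPM in cluster 18, led by replication genes. It stood at 195 and 189 CPM in cluster 43 (led by Eomes) and 122 and 111 CPM in cluster 44 (led by Tac2). Tubb4b stood at 305 and 331, 190 and 159, and 139 and 87.7 CPM in these clusters. Neuroblast-like cells held 174 and 159 CPM of Tuba1b and 119 and 110 CPM of Tubb4b. The fall of Tuba1b thus rests mainly on cluster 18, with no test. Of all genes called, 3440 were higher and 3500 lower, against 2740 higher and 4304 lower under total-count scaling.

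The modifying enzymes were higher in 8 and lower in 2 of 16 tested at this step, and these included Ttll7 (1.99 ± 0.17), a polyglutamylase that prefers beta-tubulin, Agtpbp1 (1.07 ± 0.11), which shortens glutamate chains, Atat1 (0.84 ± 0.08) and Svbp (0.76 ± 0.07), the partner of the vasohibins. Among all genes tested, 27.7% were higher and 28.1% lower. Of the chaperonin and prefoldin subunits 5 were higher and 3 lower, with folds such as 0.31 ± 0.05 for Pfdn5, 0.21 ± 0.06 for Cct5, -0.39 ± 0.06 for Cct3 and -0.24 ± 0.06 for Tcp1. Of 7 cofactors 3 were higher, namely Tbce (0.91 ± 0.12), Tbcc (0.53 ± 0.14) and Tbca (0.35 ± 0.06), and Arl2 (-0.35 ± 0.11) was lower. Among 4 other tubulins tested, Tubg2 rose, on 44 and 29 UMIs in Neuroblast-like cells and 2 and 1 in nIPC-like cells (ratios of 9.82, interval 2.56 to 83.6, and 11.9, interval 1.98 to 488), and Tubg1 (-0.82 ± 0.13) and Tube1 (-0.70 ± 0.31) fell. Scaper, which acts in the decay of tubulin mRNA when free tubulin is in excess, was higher (1.21 ± 0.12), after being lower in nIPC-like against RGL-like cells (-0.42 ± 0.16), and Ttc5, which acts in the same decay, was called in neither contrast.

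Granule neuron-like cells held far less of the young-neuron isotypes. In Granule neuron-like against Neuroblast-like cells, Tubb3 (-3.95 ± 0.11), Tubb2b (-3.66 ± 0.09), Tuba1a (-3.17 ± 0.08) and Tubb5 (-3.08 ± 0.09) were lower. Tubb2a was higher by 1.27 ± 0.08, at 1098 and 967 CPM in Granule neuron-like cells, against 429.7 and 448 CPM in Neuroblast-like cells. Tuba1b (0.64 ± 0.09) and Tubb4b (0.62 ± 0.10) were also higher, and Tubb4a was not called (-0.17 ± 0.12, adjusted p = 0.201). The 3 higher and 4 lower of 8 members compare with 32.2% and 33.2% of 12242 genes, and the members' median was -1.63 beside -0.06 for all genes.

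An alpha-tubulin outside the 10 took another course at this step. Tuba4a stood at 288 and 259 CPM in Granule neuron-like cells, against 1.90 and 2.59 CPM in Neuroblast-like cells, a fold of 6.97 ± 0.16, and Tubg2 was called higher as well. These were the 2 of 5 other tubulins tested that were called higher, with 0 lower. Among all genes tested, 32.2% were higher and 33.2% lower. The chaperonin and prefoldin subunits were lower in 9 and higher in 2 of 14 (median -0.38), among them Pfdn4 (-1.36 ± 0.13), Cct4 (-0.90 ± 0.10), Vbp1 (-0.83 ± 0.12) and Cct3 (-0.56 ± 0.10). Of 16 modifying enzymes 3 were higher and 7 lower, with Ttll7 (1.72 ± 0.12) and Agtpbp1 (1.56 ± 0.10) higher and Atat1 (-3.38 ± 0.18) and Svbp (-1.98 ± 0.13) lower. Of 7 cofactors 2 were higher (Tbcel, 0.76 ± 0.17, and Tbcc, 0.47 ± 0.17) and 2 lower (Tbce, -0.80 ± 0.17, and Tbcb, -0.65 ± 0.11). Scaper was lower (-0.71 ± 0.16).

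Cycling-like cells held more Tuba1c, Tubb6, Tubb4b, Tuba1b and Tubb5 than nIPC-like cells. The nIPC-like class includes cluster 18 (129 and 119 of its 238 and 212 cells), which is led by replication genes. Cluster 18 scored 1.03 for nIPC, near the minimum of 1, and 0.87 for RGL. In Cycling-like against nIPC-like cells, Tuba1c was higher by 5.77 ± 0.20 (117 and 139.9 CPM in Cycling-like cells, 3.97 and 0.740 CPM in nIPC-like cells), and its fold was 4.83 in library 1 and 6.83 in library 2, where nIPC-like cells held only 2 UMIs. With no count added, the ratio was 29.5 (interval 17.4 to 54.4) in library 1 and 189 (interval 52.05 to 1566) in library 2. Tubb6 was called higher on 34 and 26 UMIs in Cycling-like cells and 6 and 0 in nIPC-like cells. In library 1 that is a ratio of 5.93 (interval 2.46 to 17.3), and in library 2 it is at least 7.16-fold higher against a floor of 3 UMIs. Tubb4b (1.94 ± 0.05), Tuba1b (1.72 ± 0.04) and Tubb5 (0.71 ± 0.03) rose, while Tubb3 (-1.42 ± 0.07), Tubb2b (-0.72 ± 0.04) and Tubb2a (-0.62 ± 0.09) fell. Thus 5 of 10 were higher and 3 lower, against 18.2% and 14.1% of 11544 genes, and the members' median fold was 0.35 beside -0.02. Tuba1a did not pass (-0.02 ± 0.02, adjusted p = 0.677), nor did Tubb4a (-0.48 ± 0.23, adjusted p = 0.108), and under total-count scaling both were called lower (-0.18 and -0.64). All genes called split into 2100 higher and 1629 lower, against 1331 and 3120 under total-count scaling and 755 and 211 with DESeq2. With close clusters counted as nIPC, Tubb2a stood at -1.21, Tubb3 at -2.13 and Tuba1a at -0.52, and with free RNA subtracted Tuba1c stood at 7.15. Cycling-like cells held 4 of 7 nIPC markers in 25% or more of cells, at 759.8 and 732 CPM in sum.

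Of 14 chaperonin and prefoldin subunits 5 were higher and 0 lower, led by Vbp1 (1.26 ± 0.08), Tcp1 (0.39 ± 0.06), Pfdn6 (0.36 ± 0.08) and Pfdn2 (0.20 ± 0.07). In this contrast 18.2% of all genes tested were higher and 14.1% lower. Of 7 cofactors Tbcb (0.31 ± 0.07) and Tbca (0.20 ± 0.06) rose and Tbcel (-0.42 ± 0.17) fell. Of 15 modifying enzymes 3 were higher and 2 lower, including the polyglutamylases Ttll4 (0.72 ± 0.18) and Ttll5 (0.72 ± 0.21), with Atat1 (-0.51 ± 0.11) and Svbp (-0.29 ± 0.09) lower. Of 3 other tubulins tested, Tubd1 (1.99 ± 0.34), the centriolar delta-tubulin, and Tubg1 (0.65 ± 0.11) were higher. Neither autoregulation gene was called with edgeR or DESeq2, and 0 had an unadjusted p under 0.05, as also in RGL against Astrocyte.

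RGL-like cells differed from Astrocyte-like cells, their close relatives, in 5 of 9 members tested, from both families. Tuba1a (1.36 ± 0.08) and Tuba1b (0.89 ± 0.09) were higher, as were Tubb5 (0.95 ± 0.09) and Tubb2b (0.52 ± 0.07). Tubb2a was lower (-0.84 ± 0.08), at 348 and 396 CPM in RGL-like cells, against 528 CPM in both libraries of Astrocyte-like cells. The 4 higher and 1 lower of 9 tested compare with 24.0% and 26.4% of 12382 genes, with medians of 0.52 and 0.01. With both directions counted, the share of members called was near that of all genes. Tubb3 missed the threshold (0.72 ± 0.32, adjusted p = 0.0515) but was called under total-count scaling (1.05, adjusted p = 0.00492), at a 10% mitochondrial limit (1.32, adjusted p = 0.0118), with doublets kept (1.41, adjusted p = 0.000145) and with free RNA subtracted (2.16, adjusted p = 0.0135). Also below the threshold were Tuba1c (-1.10 ± 0.57, adjusted p = 0.0981), Tubb4a (0.15 ± 0.19, adjusted p = 0.546) and Tubb4b (-0.03 ± 0.08, adjusted p = 0.775). The count of called members was 8 under total-count scaling and 9 with doublets kept, against 5 here. All genes called split into 2969 higher and 3271 lower, against 5543 and 1975 under total-count scaling. Beside these values, 6 of 8 astrocyte markers were found in 25% or more of RGL-like cells, at 9927 and 9021 CPM in sum, against 18646 and 18355 CPM in Astrocyte-like cells.

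In the same contrast 11 of 14 chaperonin and prefoldin subunits were higher and 1 lower (median 0.33), including Cct3 (0.74 ± 0.10), Cct5 (0.53 ± 0.10), Pfdn2 (0.51 ± 0.11) and Cct8 (0.48 ± 0.10). Tuba4a was lower (-4.55 ± 0.17), with 5.92 and 4.62 CPM in RGL-like cells, against 103 and 93.5 CPM in Astrocyte-like cells, and it was the only 1 of 4 other tubulins called. Of 15 modifying enzymes 4 were higher and 3 lower, among them Ttll3 (2.02 ± 0.14), Ttll5 (1.71 ± 0.23) and Ttll1 (1.31 ± 0.31), with Ttll7 lower (-0.84 ± 0.22). Of 7 cofactors Tbca was higher (0.33 ± 0.09) and Tbcel lower (-0.46 ± 0.11). These list counts stand beside 24.0% of all genes tested higher and 26.4% lower.

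Mature oligodendrocytes held a different beta-tubulin from their precursors. In Oligodendrocyte-like against OPC-like cells, Tubb4a was higher by 5.22 ± 0.19, while Tubb2a (-4.74 ± 0.21), Tubb2b (-4.55 ± 0.16) and Tubb5 (-1.76 ± 0.15) were lower. Of 9 members 3 were higher and 3 lower, against 22.3% and 21.9% of 11406 genes, with medians of -0.24 and 0.04. The other 2 higher calls were weak. Tubb3 was higher by 1.44 ± 0.40 (adjusted p = 0.00953), but by 3.46 in library 1 and 0.75 in library 2, and the call was lost under total-count scaling (0.71, adjusted p = 0.123), with DESeq2 (1.85, adjusted p = 0.0738) and with doublets kept (0.34, adjusted p = 0.677). Tuba1a was called higher (0.43 ± 0.16, adjusted p = 0.0455) although its CPM was 1089.9 and 1129 in Oligodendrocyte-like cells, against 1125 and 1605 in OPC-like cells, and under total-count scaling the fold was -0.29. That call was also lost with DESeq2 (adjusted p = 0.247), with doublets kept (adjusted p = 0.234) and with free RNA subtracted (adjusted p = 0.269), and without the replicate block (adjusted p = 0.0793). Tubb4b (0.33 ± 0.17, adjusted p = 0.136), Tuba1b (-0.24 ± 0.17, adjusted p = 0.290) and Tuba1c (-1.66 ± 0.82, adjusted p = 0.118) were not called. Total-count scaling, which moved the median of all genes to -0.68, gave 4.49 for Tubb4a, -5.47 for Tubb2a, -5.27 for Tubb2b and -2.49 for Tubb5, and 1251 genes higher and 4880 lower, against 2544 and 2496 here. Subtracting free RNA gave -6.62 for Tubb2a and -6.63 for Tubb2b, and keeping doublets -3.95 and -3.69. In Oligodendrocyte-like cells of library 1, free RNA alone would give 5.91 CPM of Tubb2a and 16.8 CPM of Tubb2b. The levels found were 6.17 and 10.1 CPM, so little or no count was left there after subtraction. OPC-like cells were few, 25 in library 1 and 56 in library 2. They held 2287 CPM of microglial markers in library 1 and 136 CPM in library 2, and 463 and 21837 CPM of erythroid markers, the part of which in these results was not tested.

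Between these stages, Committed oligodendrocyte-like cells had Tubb4a at 1821 and 1554 CPM together with Tubb2b at 1154 and 1251 CPM and Tuba1a at 6253 and 5712 CPM. Their values were not tested against either neighbour. Among related genes in the contrast of Oligodendrocyte-like with OPC-like cells, Ttll7 was higher by 5.04 ± 0.21 (1650.4 and 1468 CPM in Oligodendrocyte-like cells, 63.7 and 87.1 CPM in OPC-like cells), and Ttll5 (2.99 ± 0.35), Agtpbp1 (2.16 ± 0.26) and Sirt2 (1.62 ± 0.16), which is abundant in myelin, were higher as well. In all 5 of 13 modifying enzymes were higher and 4 lower, against 22.3% and 21.9% of all genes tested. Of 7 cofactors Arl2 (3.68 ± 0.21) and Tbcd (2.77 ± 0.48), which act in 1 complex, were higher and Tbca (-1.17 ± 0.18) was lower. Of 14 chaperonin and prefoldin subunits 4 were higher, namely Vbp1 (1.57 ± 0.18), Cct2 (0.81 ± 0.16), Tcp1 (0.55 ± 0.17) and Pfdn5 (0.55 ± 0.15), and 0 lower. None of the 4 other tubulins or 2 autoregulation genes tested was called with edgeR or DESeq2, and 0 had an unadjusted p under 0.05.

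Microglia, which come from the yolk sac and not from neural tissue, differed from astrocytes in 8 of the 10 isotypes. In Microglia-like against Astrocyte-like cells, Tuba1c was higher by 5.69 ± 0.19 and Tubb6 by 4.41 ± 0.31, and so were Tuba1b (1.72 ± 0.10) and Tubb5 (1.64 ± 0.10). Tubb2b (-3.27 ± 0.12), Tubb4b (-2.72 ± 0.10), Tubb2a (-1.46 ± 0.10) and Tubb4a (-1.29 ± 0.23, adjusted p = 1.51e-05) were lower. The 4 higher and 4 lower of 10 compare with 41.8% and 38.7% of 13991 genes, with medians of -0.16 and 0.08, so the share of members called was near the background. Tubb6 rested on 11 UMIs in Astrocyte-like cells of library 1 and 1 in library 2, and its fold was 3.35 in library 1 and 6.29 in library 2. With no count added, the ratio was 10.1 (interval 5.62 to 20.4) in library 1 and 136 (interval 24.3 to 5392) in library 2. With doublets kept the folds of Tubb6 and Tuba1c were 2.86 and 3.22. Tuba1c stood at 6.40 within library 1, and subtracting free RNA gave 6.75 for Tuba1c and -9.20 for Tubb4a. Microglia-like cells held 4.37 and 6.40 CPM of Tubb4a, below the 4.45 and 7.78 CPM expected from free RNA alone. Subtraction thus left no Tubb4a count there, and -9.20 is not a measured size. Tuba1a (0.12 ± 0.10, adjusted p = 0.294) and Tubb3 (-0.44 ± 0.36, adjusted p = 0.259) were not called.

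Of the lists, 9 of 14 chaperonin and prefoldin subunits were higher and 3 lower, with Pfdn2 (1.07 ± 0.10) and Cct4 (0.94 ± 0.10) higher and Pfdn1 (-1.42 ± 0.09) and Pfdn6 (-0.98 ± 0.10) lower. Among all genes tested, 41.8% were higher and 38.7% lower. The share of subunits called was thus near the background, and that of the modifying enzymes below was under it. Of 7 cofactors 1 was higher (Tbcd, 1.24 ± 0.25) and 4 lower, such as Tbcel (-1.79 ± 0.11), Arl2 (-1.22 ± 0.12) and Tbce (-0.72 ± 0.13). Tuba4a (-2.25 ± 0.11), Tube1 (-2.56 ± 0.52) and Tubg1 (-0.77 ± 0.18) were the 3 of 4 other tubulins called, all lower. Of 14 modifying enzymes 3 were higher and 4 lower, with Agbl5 (0.99 ± 0.33) higher and Ttll7 (-2.42 ± 0.27), Agtpbp1 (-1.11 ± 0.16) and Svbp (-0.61 ± 0.10) lower. Scaper was lower (-0.43 ± 0.13).

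**Figure D5:**
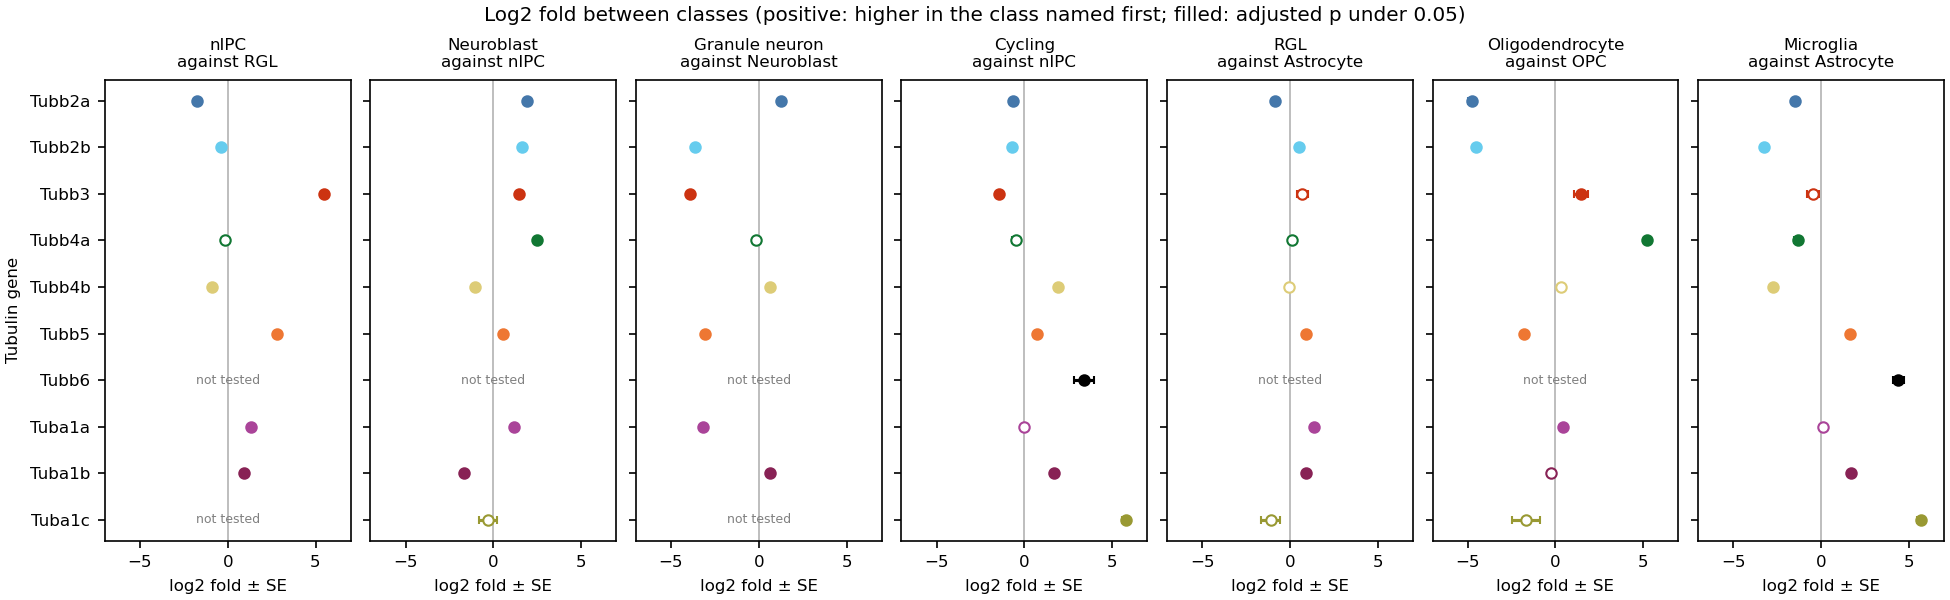
Log2 folds ± SE of the tested members in 7 contrasts between classes, filled points for members called at an adjusted p under 0.05 and open points for the rest, from edgeR. Tubb3 stands at 5.45 in nIPC against RGL and at -3.95 in Granule neuron against Neuroblast, and Tubb4a reaches 5.22 in Oligodendrocyte against OPC.

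Classes were not uniform inside. Of the nIPC-like clusters, cluster 18, led by replication genes such as Hells, Mcm6 and Uhrf1, had Tubb3 at 92.8 and 118 CPM and Tuba1a at 1797 and 1716 CPM. Cluster 43, led by Eomes, had Tubb3 at 680.3 and 808 CPM and Tuba1a at 4728 and 4687 CPM. Cluster 44, led by Tac2, had Tubb3 at 937 and 1056 CPM, close to the 899 and 790.0 CPM of the Neuroblast-like cluster 5, while the Neuroblast-like cluster 42 reached 1268 and 1271 CPM. The class value of nIPC-like cells is thus an average over clusters that differ widely in Tubb3, as they do in Tuba1b and Tubb2b. These cluster values are descriptions, with no test.

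The Cycling-like clusters differed as well. Cluster 20, led by histone genes, had Tubb5 at 3194 and 2888 CPM, Tuba1b at 2083 and 2059 CPM, Tuba1c at 55.8 and 75.4 CPM and Tubb4b at 533 and 666 CPM. Cluster 22, led by genes of mitosis such as Cenpf, Ube2c and Ccnb1, had Tubb5 at 1836 and 1959 CPM, Tuba1b at 1225 and 1193 CPM, Tuba1c at 179.6 and 238 CPM and Tubb4b at 1164 and 1276 CPM. Tubb4b and Tuba1c were thus higher in the mitotic cluster of both libraries and Tubb5 and Tuba1b higher in the other.

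Among Microglia-like clusters, cluster 13, led by the cytokine genes Ccl4, Ccl3 and Tnf, had Tuba1c at 225 and 248 CPM and Tubb6 at 73.4 and 107 CPM. Cluster 7 had Tuba1c at 20.9 and 19.7 CPM and Tubb6 at 7.98 and 3.58 CPM, and the largest cluster, cluster 0, had 93.5 and 109 CPM and 11.1 and 14.5 CPM. Tuba1a had the opposite order between clusters 13 and 0, at 253 and 217 CPM in cluster 13 and 395 and 383 CPM in cluster 0.

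The libraries were close but not equal. Of 180 levels (10 isotypes in 18 classes), the intervals of the libraries overlapped in 130 and were apart in 50, with library 1 higher in 32 and library 2 in 18. Tuba1a was apart in 11 of 18 classes. Choroid plexus-like cells had Tuba1a at 459.6 CPM in library 1 and 193 CPM in library 2, and Endothelial-like cells had 1062 and 777 CPM. Because 1 library was made per genotype, genotype and library cannot be told apart in these differences, which have no replicate.

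Across the 18 classes, the levels of some isotypes went together, described by Pearson's r of log2(CPM + 10) on means of both libraries, over classes that share libraries and with no test. The highest values between members were 0.77 for Tubb5 with Tuba1a and 0.74 for Tubb3 with Tubb5, and Tubb6 went with Tuba1c (0.67) and against Tuba1a (-0.61). Among 8882 other genes that reach 50 CPM in a class, those most like Tubb3 were Dpysl5 (0.94), Clvs1 (0.93) and Plppr3 (0.92). Those most like Tubb4a were Capn5 (0.96), Nacad (0.95) and Sh3gl3 (0.94), and those most like Tubb5 were Hnrnpa0 (0.95), Hnrnpa1 (0.93) and Nono (0.93). Tubb2b was closest to Apba2 (0.92), C130071C03Rik (0.90) and Fut9 (0.89), Tubb2a to Lman2l (0.85), Xpr1 (0.82) and Snx10 (0.81), and Tubb4b to Mrpl51 (0.84), E2f6 (0.79) and Ift74 (0.79). Tubb6 was closest to Crlf2 (0.93), Ehd4 (0.91) and Birc3 (0.91). Tuba1a was closest to Zfp553 (0.94), Nap1l4 (0.90) and Fbxo21 (0.89), Tuba1b to Hat1 (0.85), Nsmce4a (0.81) and Rnaseh2c (0.80), and Tuba1c to Abracl (0.76), Eif4ebp1 (0.74) and P3h2 (0.72). With 1 CPM added in place of 10, 23 of these 30 genes were again among the closest 3.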

How the data were processed

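The authors deposited raw counts of UMIs per gene and barcode as 1 matrix of all libraries; per the submitters' processing notes the tools include Cell Ranger 4.0.0 and Scanpy 1.7.0 and the build is mm10. The barcode suffix gave the library. A barcode was kept as a cell from 1000 UMIs and 500 genes upwards, unless over 20% of its UMIs were mitochondrial. Scrublet (expected rate 0.06) marked 226 and 252 doublets, which were removed. Cells were clustered with scanpy 1.11.5 and leidenalg 0.10.2 (3000 variable genes, 40 components, 15 neighbours, resolution 1), leaving out the 10 isotypes and their related lists. A class could name a cluster where at least 3 of its markers were found in 25% of the cells and its score, the mean log2 fold of its markers against all other cells, was at least 1. Among such classes scoring 0.75 or more of the best, the one with most markers among the 10 leading genes gave the name, so that clusters 42 and 44 were close between Neuroblast and nIPC. A cluster stayed unnamed where a class with fewer markers scored higher, or where it was shallow with none of its markers leading. This naming rule was set after the data had been seen, and 226 and 236 cells stayed unnamed. Classes needed 20 cells in each library.

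For the tests, raw counts were added up over the cells of a class in each library and fitted in R 4.3.3 by edgeR 4.0.16 (quasi-likelihood, TMM scaling, filterByExpr, library as a block), with DESeq2 1.42.0 as an alternative. The block pairs class sums from the same library, which is the same tissue sample. The libraries held 102897659 and 107266420 UMIs over all barcodes, and the class sums tested held 235634 to 24964937. Other alternatives were total-count scaling, no filter on low counts, no block, each library left out, a 10% mitochondrial limit, at least 2000 UMIs, doublets kept, resolution 1.5, subtraction of free RNA, and, chosen after seeing the data, close clusters counted as nIPC. The isotypes and the lists of related genes were chosen with earlier results of these data known. All tested isotypes are named, and of each list up to 4 called genes with the smallest adjusted p. No comparison by genotype was made, and the coding ends of the alpha isotypes are not reported here.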

Additional observations from a re-analysis of the deposited data

Results flagged for a closer look

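Cells outside the 18 classes also held tubulin transcripts and are listed because they were in no comparison. The values pool both libraries, and free RNA held 0.361% and 0.293% of its UMIs in the 10 isotypes. Cluster 40, with GABA neuron markers (27 cells, led by Dlx1 and Dlx6os1), held 1.36% of its UMIs in the 10 isotypes, with Tubb3 at 1174 CPM, Tubb2b at 2636 CPM and Tuba1a at 5879 CPM.

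The other 4 clusters stayed unnamed. Cluster 33 (77 cells, median 1735 UMIs, led by Mir124a-1hg and Cntnap5a) held 0.644%, with Tubb3 at 333 CPM and Tubb2b at 1887 CPM. Cluster 36 (55 cells, led by Hbb-bs and Hba-a1) held 0.373%, with Tubb4a at 888 CPM. Cluster 14 (264 cells, led by Cd52, Lyz2 and Tyrobp) held 0.134%, and cluster 34 (66 cells, led by H2-Eb1, H2-Aa and Cd74) held 0.129%, with Tubb6 at 67.1 CPM and Tuba1c at 136 CPM.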

How the results depend on the processing

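Of 63 member folds, 62 kept their direction and side of the threshold without the replicate block, and the exception was Tuba1a in Oligodendrocyte against OPC (0.40, adjusted p = 0.0793). The number that kept both was 63 with at least 2000 UMIs and at resolution 1.5, 61 without the filter on low counts, 60 with DESeq2, 58 of 62 at the 10% mitochondrial limit, 54 of 59 with free RNA subtracted, 30 of 35 with close clusters counted as nIPC, and 52 each under total-count scaling and with doublets kept. Leaving out either library gave 126 folds, of which only those of called members could count as reversed, and 0 did. A call from 2 libraries leans on folds of the same sign in both, so this count says little. More than 1 SE of movement was seen in 33 of 63 folds without library 1 and in 32 of 63 without library 2. These single-library folds carry the small added count, whose part in the movement was not tested.

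Folds changed sign as follows. In nIPC against RGL, Tubb4a stood at 0.033 under total-count scaling and at 0.50 with close clusters counted as nIPC, where Tubb2b stood at 0.22. In Neuroblast against nIPC, Tuba1c stood at 0.024 with DESeq2 and 0.37 with doublets kept. With doublets kept, Tubb4a stood at 0.31 in Granule neuron against Neuroblast and at 0.080 in Cycling against nIPC, where Tuba1a stood at 0.00074 with free RNA subtracted. In RGL against Astrocyte, Tubb4b stood at 0.30 under total-count scaling, 0.072 at the 10% limit and 0.18 with doublets kept. In Oligodendrocyte against OPC, total-count scaling gave -0.39 for Tubb4b and -0.29 for Tuba1a. In Microglia against Astrocyte, Tubb3 stood at 0.047 at the 10% limit and 0.10 with doublets kept. The causes were not tested.

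DESeq2 called fewer genes than edgeR: 4693 against 8224 in nIPC against RGL, 3314 against 6940 in Neuroblast against nIPC, 4632 against 8011 in Granule neuron against Neuroblast, 966 against 3729 in Cycling against nIPC, 2841 against 6240 in RGL against Astrocyte, and 2877 against 5040 in Oligodendrocyte against OPC. Called members in RGL against Astrocyte numbered 8 under total-count scaling and 9 with doublets kept, against 5. Total-count scaling moved the median fold of all genes to 0.18, -0.12, -0.10, -0.19, 0.34, -0.68 and 0.01 in the order the contrasts were described. It moved the share of calls that were higher to 38.9% in Neuroblast against nIPC, 29.9% in Cycling against nIPC (78.2% with DESeq2), 73.7% in RGL against Astrocyte and 20.4% in Oligodendrocyte against OPC, against 49.6%, 56.3%, 47.6% and 50.5%. Few cells limit the precision of the smaller classes, and with free RNA subtracted 216 of 360 levels stayed within their intervals.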
